A study of Mus musculus with 41 samples.

Results

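The genes described here are 33 chaperones and unfolded protein response genes, taken by symbol from a table of raw counts for 19434 genes; all 33 symbols had a row. They divide into 22 genes of the endoplasmic reticulum (ER) and 11 heat shock genes of the cytosol, nucleus and mitochondria, and these are described apart. The counts come from 41 RNA-seq libraries of sorted mouse T cells, made to ask what loss of Uhrf1, a protein needed to copy DNA methylation at cell division, does to regulatory T (Treg) cells. Treg cells restrain immune responses and depend on the transcription factor Foxp3.

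There were 8 groups, all from mice 8 weeks old. The chimera experiment held CD25hi Foxp3-YFP+ Treg cells from female Uhrf1+/+ Foxp3 YFP-Cre/YFP-Cre controls (n = 4) and from female Uhrf1 fl/fl Foxp3 +/YFP-Cre mice, called the chimeric knockout (n = 4). In these heterozygous females Cre is made in the Treg cells that use the Foxp3 YFP-Cre allele, and the sort took YFP+ cells. The pulse-chase experiment used mice with Foxp3 GFP-CreERT2, a tamoxifen-dependent Cre made in Foxp3-expressing cells, and the Rosa26Sor CAG-tdTomato reporter of its action; the mice were Uhrf1+/+ (control, n = 5) or Uhrf1 fl/fl (fl/fl, n = 6). All of them ate tamoxifen chow for 2 weeks and then standard chow for 4 weeks. Each genotype gave 3 sorted populations: labeled Treg cells (GFP+ tdTomato+), ex-Foxp3 cells (GFP- tdTomato+), which had carried the label and had no Foxp3 reporter at the sort, and post-tamoxifen Treg cells (GFP+ tdTomato-), which in fl/fl mice carried no reporter sign that Cre had acted. Where nothing in the labels says that libraries of a group came from separate animals, p-values measure the spread between these libraries, which may be technical.

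Library totals ran from 2403189 to 5709702 counts in the chimera experiment and from 781437 to 3435802 in the pulse-chase experiment, and levels are given as CPM, counts scaled to a common library size and composition. Uhrf1 itself stood at 22.2 to 32.4 CPM in chimera controls and 8.65 to 22.3 in chimeric knockouts, ranges that overlap narrowly. In labeled cells it stood at 11.3 to 104 CPM in controls and 10.4 to 88.3 in fl/fl, and in post-tamoxifen cells at 13.7 to 59.4 (median 22.1) in controls and 18.9 to 155 (median 78.5) in fl/fl; the table counts the whole gene, and which part is deleted was not given in the sources used here. Foxp3 stood at 13.3 to 151 CPM in ex-Foxp3 libraries and at 317 to 765 in labeled and chimera libraries. It reached down to 123 and 127 in 1 post-tamoxifen library of each genotype, inside the ex-Foxp3 range. The summed level of 5 Treg markers, Foxp3 among them, ran from 1038 to 2459 CPM in fl/fl post-tamoxifen libraries 1 to 3. In fl/fl post-tamoxifen libraries 4 to 6 that sum ran from 2346 to 2625 CPM. The Y-linked gene Ddx3y had 255 to 807 counts in 7 libraries (chimera control 1, labelled female, and all populations of pulse-chase controls 2 and 3) and at most 6 elsewhere, so same-numbered control libraries shared this feature.

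The ER folds secreted and membrane proteins with lumenal chaperones, lectins and disulfide isomerases. When folding demand exceeds capacity, the sensors IRE1, ATF6 and PERK start the unfolded protein response, which raises these same chaperones through the factors XBP1 and ATF6. Heat shock chaperones do comparable work in the cytosol and mitochondria, and HSF1 drives their induction by heat or other proteotoxic stress. Plasma cells, the antibody-secreting form of B cells, are known for very high ER chaperone expression.

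ER chaperones and sensors differed widely in level. Set per kilobase of exon, so that genes can be compared, the mean over the 8 groups was highest among ER members for Calr (calreticulin, a lectin chaperone), whose group means ran from 186 to 274 CPM per kilobase. Hsp90b1 (GRP94, the ER form of HSP90) followed the isomerase Pdia3 at 132 to 197 CPM per kilobase, and Hspa5 (BiP, the main ER chaperone) stood at 90.7 to 120.5. The sensors were low: Atf6 stood at 3.37 to 7.99 and Ern1 (IRE1) at 2.72 to 5.35 CPM per kilobase. All 22 ER members passed the filter on low counts in both experiments.

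Many ER members share a control sequence by which XBP1 and ATF6 are known to act, the ER stress response element, CCAAT followed after 9 bases by CCACG. RefSeq promoters (GRCm38.p6, 250 bases before to 50 after the start site) were at hand for 26 of the 33 members, 19 of them ER members. The element, searched on both strands, was present in 8 of these 19 promoters (42.1%) and in 39 of all 32851 promoters of the same length (0.119%). The members were chosen as genes of this response, so the contrast in shares is not independent of that choice. The matches are shown as a description of sequence. Each is read 5′ to 3′ on the strand where CCAAT comes first, with CCAAT and CCACG in capitals.
Hspa5, chr2:34772020-34772048, plus strand: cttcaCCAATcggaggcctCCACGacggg
Calr, chr8:84847070-84847098, plus strand: atgggCCAATgagggtcgaCCACGcgttg
Hsp90b1 (farther from the start), chr10:86705633-86705661, minus strand: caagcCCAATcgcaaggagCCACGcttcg
Hsp90b1 (nearer the start), chr10:86705528-86705556, plus strand: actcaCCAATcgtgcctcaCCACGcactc
Canx, chr11:50325795-50325823, minus strand: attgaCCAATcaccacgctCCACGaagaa
Pdia6, chr12:17266486-17266514, plus strand: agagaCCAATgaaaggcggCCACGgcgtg
Dnajc3, chr14:118937822-118937850, plus strand: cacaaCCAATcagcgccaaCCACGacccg
Creld2, chr15:88819515-88819543, minus strand: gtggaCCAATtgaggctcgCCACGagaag
Syvn1, chr19:6046527-6046555, plus strand: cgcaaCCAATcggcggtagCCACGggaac
The shorter core ACGTG, which can also occur inside other motifs, was in 36.8% of ER member promoters, 33.3% of heat shock member promoters and 19.6% of all promoters, a much smaller contrast. A match is a description of letters, and no binding was measured here.

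Between genotypes, ER members were called in 1 sorted population when all libraries were used. In post-tamoxifen Treg cells 6 of the 22 were higher in fl/fl than in control and none was lower (edgeR quasi-likelihood test, adjusted p under 0.05), against 3.9% of all 9921 genes tested that were higher (7.23% in either direction). The 6 were the chaperones Hspa5, Calr and Canx (calnexin, the membrane-bound partner of calreticulin), the disulfide isomerases Pdia4 and P4hb, and the sensor Atf6. The median log2 difference of the 22 was 0.36, with 19 above 0, while the median of all genes was 0.01. In bulk RNA a change in the share of a cell type and a change in RNA per cell cannot be told apart.

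Calr stood at 498, 565, 598, 541 and 641 CPM in the control post-tamoxifen libraries. In fl/fl its lowest, median and highest values were 681, 794 and 890.4 CPM. The groups did not overlap, and Calr was higher in fl/fl by 0.47 ± 0.11 (log2 ± SE, adjusted p = 0.00503). Hspa5 stood at 385, 407, 333, 394 and 399 CPM in control and at 643, 581 and 475 CPM in fl/fl libraries 1 to 3 but 449, 418 and 448 CPM in libraries 4 to 6. Every fl/fl library was above every control, and libraries 1 to 3 made up the upper part of the fl/fl range (log2 difference 0.39 ± 0.10, adjusted p = 0.012). P4hb, the isomerase that forms disulfide bonds in new proteins, stood at 166, 169, 204, 178 and 178 CPM in control and at 196, 253 and 325 (lowest, median, highest) in fl/fl. There 1 control exceeded the lowest fl/fl libraries, and the difference was 0.46 ± 0.10 (adjusted p = 0.00487).

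Pdia4, a further isomerase, stood at 234, 241, 269, 200.2 and 263 CPM in control post-tamoxifen cells and at 275, 323 and 397 in fl/fl, without overlap (log2 difference 0.44 ± 0.11, adjusted p = 0.0108). Canx stood at 457, 375, 363, 356 and 377 CPM in control and at 398, 509 and 528 in fl/fl; control 1 lay within the fl/fl range, and the difference was 0.33 ± 0.10 (adjusted p = 0.0275). Atf6, the membrane-tethered factor that is cut free under ER stress, had the highest log2 difference of the 6, 0.81 ± 0.20 (adjusted p = 0.00922). Its control values were 40.4, 41.9, 38.8, 44.4 and 33.3 CPM, and its fl/fl values 104, 60.9, 89.1, 41.5, 72.4 and 53.2, so that fl/fl library 4 lay inside the control range. Xbp1, the factor activated by IRE1, was at 64.4, 39.97, 70.5, 68.2 and 66.2 CPM in control and at 118, 89.1 and 83.0 in fl/fl libraries 1 to 3, but at 58.1, 69.8 and 69.4 in libraries 4 to 6. Its log2 difference of 0.40 ± 0.16 did not pass (adjusted p = 0.114), nor did that of Hsp90b1, 0.51 ± 0.17 (adjusted p = 0.0621). Leaving out 1 library ended the call of Hspa5 (control 3) and of Canx (control 3, 4 or 5, fl/fl 1 or 3). The number of members called was 4 without control 3 and 12 without fl/fl 4, against 7 with all libraries.

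The other 14 ER members did not pass in post-tamoxifen cells, with log2 differences from -0.15 ± 0.18 for Syvn1, a ubiquitin ligase of ER-associated degradation, to 0.86 ± 0.41 for Sdf2l1, a partner of BiP co-chaperones. Sdf2l1 was low and variable, at 5.05 to 16.4 CPM in control and 3.86 to 29.4 in fl/fl (adjusted p = 0.192). Creld2, an ER stress-inducible secreted isomerase, ranged from 17.7 to 25.7 CPM in control and from 15.7 to 49.2 in fl/fl (0.60 ± 0.22, adjusted p = 0.087). For both genes the control range lay inside the fl/fl range. Pdia3, the isomerase that works with calreticulin, was at 387 to 521 CPM against 491 to 629 (0.28 ± 0.10, adjusted p = 0.0809), and Sel1l, the scaffold of the degradation complex around Syvn1, at 132 to 147 against 134 to 189 CPM (0.25 ± 0.09, adjusted p = 0.0907). Ern1 (0.14 ± 0.22), the HSP110-like Hyou1 (0.13 ± 0.12), Herpud1 (0.07 ± 0.13), the BiP co-chaperone Dnajc3 (-0.02 ± 0.11) and Edem1 (-0.10 ± 0.10) lay within or close to 1 standard error of 0. Pdia6, Dnajb11 and Dnajb9, an isomerase and a pair of J-domain partners of BiP, lay between 0.26 and 0.37. Manf, a secreted ER stress protein, lay at 0.43 ± 0.17 (adjusted p = 0.119), and its row spans other genes, so its reads are uncertain.

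The ER difference was uneven over the numbered libraries. The summed level of the 22 ER members was 6222, 5544 and 5282 CPM in fl/fl post-tamoxifen libraries 1 to 3, 4185, 4885 and 4290.1 CPM in libraries 4 to 6, and 3714 to 4169 CPM in the 5 controls. With numbers 1 to 3 of all groups alone, 14 ER members were called higher (13.4% of all genes called in either direction) and their median log2 difference was 0.49. With numbers 4 and above alone, none was called (2.1% of all genes called) and the median was 0.11. Hspa5 moved from 0.59 ± 0.12 to 0.16 ± 0.11, and Xbp1 from 0.75 ± 0.21 to -0.03 ± 0.20, whereas P4hb (0.50 ± 0.11 and 0.43 ± 0.17), Pdia4 (0.47 ± 0.13 and 0.44 ± 0.18) and Canx (0.38 ± 0.11 and 0.31 ± 0.12) differed by less than their standard errors. The second subset has fewer libraries, and the difference between the subsets was not tested.

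**Figure D1:**
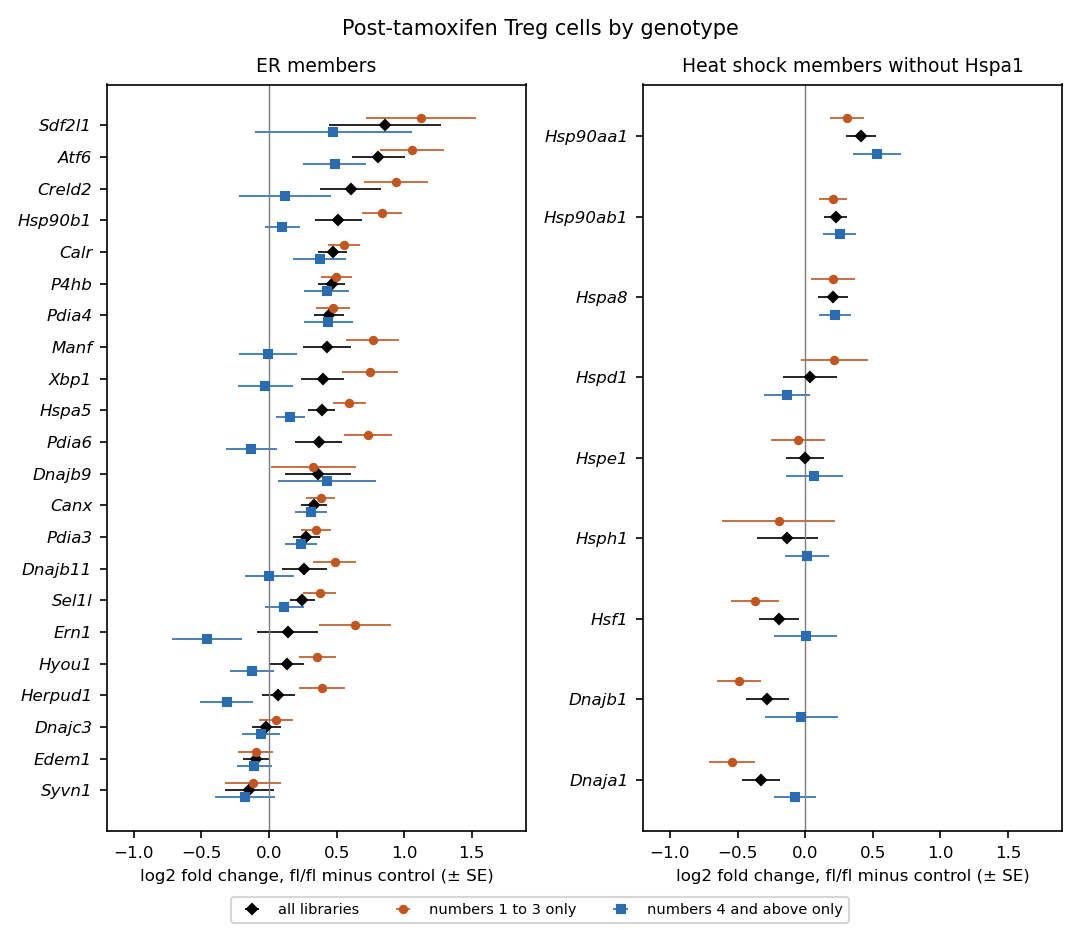
Log2 fold change (fl/fl minus control, horizontal axis, bars are standard errors) of each member in post-tamoxifen Treg cells, from all libraries, from numbers 1 to 3 alone and from numbers 4 and above alone. Most ER members lie to the right of 0 with numbers 1 to 3 (median 0.49) and nearer to 0 with numbers 4 and above (median 0.11).

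Other measures moved with the same libraries. The summed level of 10 B cell and plasma cell markers was 565, 170.1 and 191 CPM in fl/fl post-tamoxifen libraries 1 to 3 and 10.6 to 11.99 in libraries 4 to 6. In the controls it was 93.5 CPM in library 1 and 3.25 to 41.6 in the others, and in labeled and ex-Foxp3 libraries of either genotype it stayed at or below 18.9 CPM. None of the 10 markers was at 0 throughout the 41 libraries. The plasma cell genes among them were uneven in fl/fl post-tamoxifen cells. Igj, the J chain of antibodies, had a median of 67.7 and a maximum of 477 CPM there and was at 0 in 1 library. It reached 19.6 CPM in post-tamoxifen controls and 1.92 in labeled controls. Derl3, an ER gene of plasma cells, reached 4.65 CPM in fl/fl post-tamoxifen cells and was at 0 in 2 of those 6 libraries. Summed G2/M genes, read as a mark of dividing cells, stood at 4587, 3424 and 5594 CPM in fl/fl post-tamoxifen libraries 1 to 3 against 347 to 596 in libraries 4 to 6. In the post-tamoxifen controls they stood at 433 to 1566 CPM in libraries 1 to 3 and at 201 to 232 in the others. Labeled fl/fl libraries 1 to 3 had summed G2/M of 2435 to 4028 CPM too, with B cell and plasma cell markers at 5.23 to 18.9 CPM and summed ER members at 4362 to 5317 CPM. Labeled control libraries were split in the same way, with summed G2/M of 1132 to 1975 CPM in libraries 1 to 3 and 301 to 302 in the others. Myeloid markers were present in the post-tamoxifen libraries of both genotypes (28.9 to 967 CPM in control, 125 to 1299 CPM in fl/fl), whereas the same 14 markers summed to 8.14 to 63.3 CPM in ex-Foxp3 and labeled libraries. None of the 14 was at 0 throughout the 41 libraries. In post-tamoxifen cells, 11 of 21 effector Treg genes were called higher in fl/fl than in control and none lower (median log2 difference 1.06). Of 12 naive T cell genes, 4 were called lower and none higher (median -0.60), beside 7.23% of all genes called. Summed naive genes ranged from 3313 to 3737 CPM in fl/fl libraries 1 to 3, and from 4678 to 5204 in libraries 4 to 6. The effector sums of these subsets overlapped. The part of these genes in the ER difference was not tested. Without the 4 post-tamoxifen libraries whose B cell and plasma cell sum exceeded 50 CPM (control 1 and fl/fl 1 to 3), no member was called (0.17% of all genes called), and the ER median was 0.09 with 13 of 22 above 0. Calr then differed by 0.38 ± 0.13 (adjusted p = 0.244) and Hspa5 by 0.19 ± 0.11 (adjusted p = 0.512). The part of these cells in the ER difference was not tested beyond these values. When the 2 post-tamoxifen groups were fitted alone, Calr was the 1 member called.

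**Figure D2:**
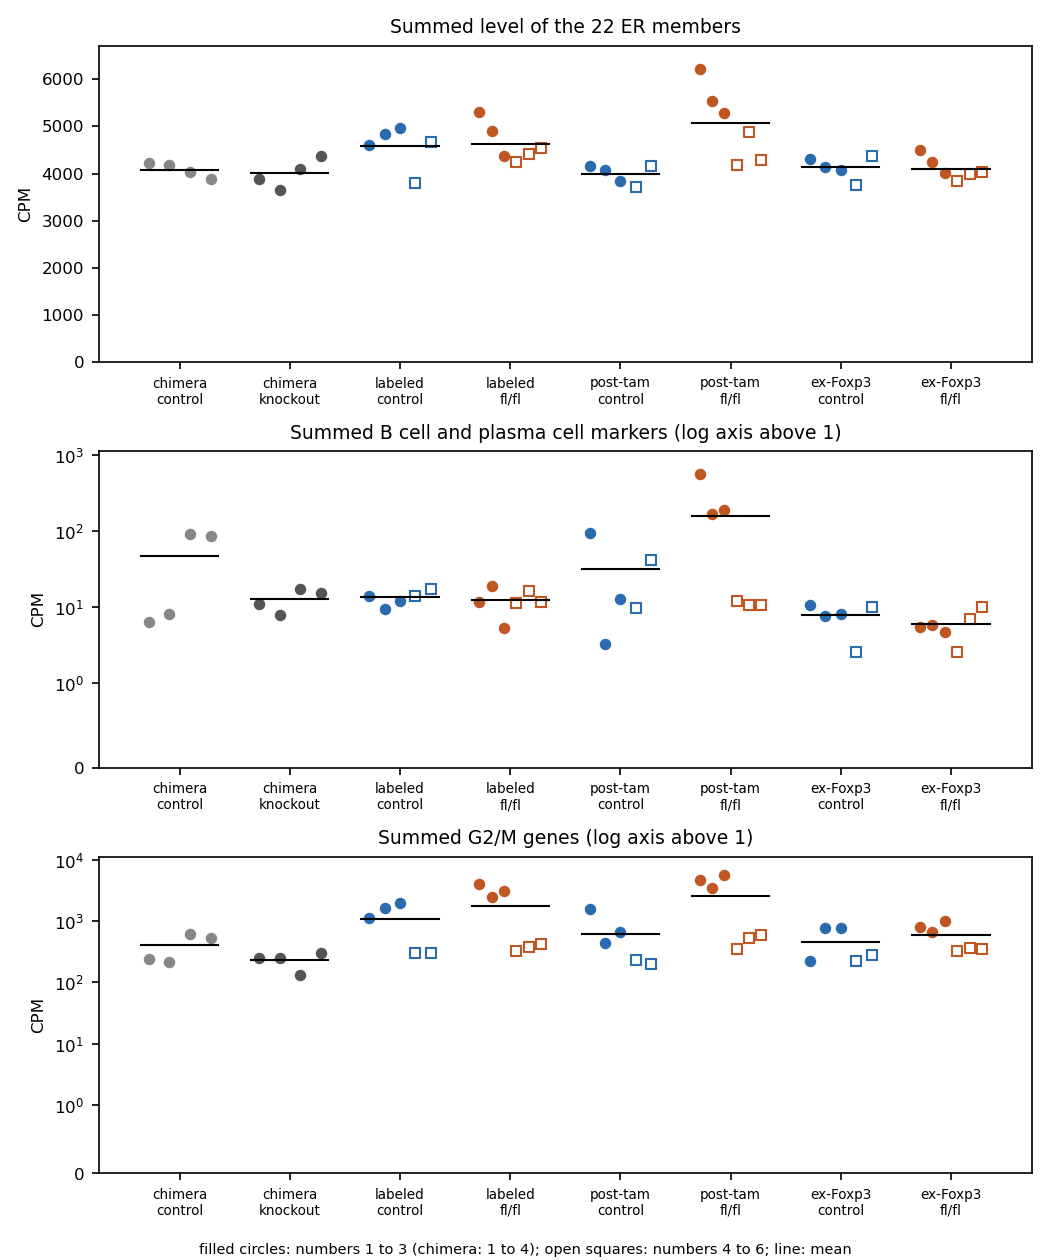
Summed CPM of the 22 ER members (top), of 10 B cell and plasma cell markers (middle, log axis above 1) and of 19 G2/M genes (bottom, log axis above 1) in each library of the 8 groups, with group means as lines. Post-tamoxifen fl/fl libraries 1 to 3, with ER sums of 5282 to 6222 CPM, had the highest B cell and plasma cell sums and high G2/M sums. Labeled fl/fl libraries 1 to 3 had ER sums of 4362 to 5317 CPM (median 4908), with B cell and plasma cell sums of at most 18.9 CPM.

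In the other genotype comparisons no ER member was called. In the chimera experiment 0 of 22 passed, 0 had an unadjusted p under 0.05, and DESeq2 called none of them either, while 2.41% of all 9569 genes tested were called. The ER median log2 difference there was 0.03, and Hspa5 stood at 566, 533, 463 and 399.6 CPM in control and 361, 376, 459 and 511 in chimeric knockouts, overlapping groups that differed by -0.21 ± 0.13 (adjusted p = 0.577). In labeled Treg cells 0 of 22 passed in edgeR and DESeq2, 1 had an unadjusted p under 0.05, and 0.0101% of all genes were called. In ex-Foxp3 cells 0 passed in both tools, 2 had an unadjusted p under 0.05, and 0.181% of all genes were called. The sensor Atf6 was at 52.2 to 83.6 CPM in labeled fl/fl cells and 40.9 to 66.5 in labeled control cells, and at 57.0 to 94.6 against 26.2 to 61.9 CPM in ex-Foxp3 cells. Those differences of 0.39 ± 0.19 and 0.64 ± 0.19 did not pass (adjusted p = 0.53 and 0.163), and the groups overlapped in both.

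The remaining ER machinery was read through a list of 58 other genes of ER folding, translocation and degradation, of which 48 were tested. In post-tamoxifen cells 4 of the 48 were higher in fl/fl and none lower, beside 3.9% of all genes higher, with a median log2 difference of 0.20. They were Ppib (an ER peptidyl-prolyl isomerase, 0.46 ± 0.12, adjusted p = 0.0122), Ostc (a subunit of oligosaccharyltransferase, 0.64 ± 0.16, adjusted p = 0.011), Rpn1 (another subunit of that enzyme, 0.50 ± 0.13, adjusted p = 0.0172) and Txndc5, named because the count was small. Of 12 tested regulators of the unfolded protein response other than the members, 0 passed in post-tamoxifen cells and 2 had an unadjusted p under 0.05, 1 in each direction, while 7.23% of all genes were called. In the chimera experiment 0 of the 48 passed (3 with an unadjusted p under 0.05; 2.41% of all genes called) and 1 of the 12 regulators, Creb3l2, an ER-anchored transcription factor related to ATF6, was lower in the knockout by 0.59 on the log2 scale (SE 0.16, adjusted p = 0.0455), beside 1.56% of all genes lower.

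Across populations, the ER members were lower in ex-Foxp3 cells than in post-tamoxifen Treg cells of fl/fl mice. There 6 of 22 were lower (Calr, Canx, Pdia4, P4hb, Xbp1 and Herpud1), none was higher, and 9.39% of all genes were lower (15.2% in either direction). The median log2 difference of the 22 was -0.38 against 0.01 for all genes. Canx stood at 337, 359.6 and 388 CPM (lowest, median, highest) in ex-Foxp3 cells and at 398, 509 and 528 in post-tamoxifen cells, without overlap (-0.43 ± 0.09, adjusted p = 0.00125). Xbp1 stood at 46.6, 52.6 and 61.3 CPM in ex-Foxp3 cells against 58.1, 76.4 and 118 CPM, and fell by 0.61 (SE 0.15, adjusted p = 0.00478). Herpud1, an ER membrane protein of protein degradation, stood at 41.4, 49.0 and 57.5 CPM against 54.8, 63.2 and 87.0, ranges that overlapped slightly (-0.42 ± 0.12, adjusted p = 0.0137); an annotated antisense gene overlaps it, and its reads could not be told apart. Calr (-0.38 ± 0.10, adjusted p = 0.00806), Pdia4 (-0.41 ± 0.10, adjusted p = 0.00604) and P4hb (-0.42 ± 0.10, adjusted p = 0.00243) were lower by similar amounts. These fl/fl post-tamoxifen libraries are the ones used in the genotype comparison above, so the comparisons share samples. The summed myeloid markers moved with the populations too, with medians of 314 CPM in post-tamoxifen, 19.6 in ex-Foxp3 and 23.5 in labeled fl/fl cells, and 395, 15.5 and 30.2 CPM in the same populations of control mice; their part in the differences from post-tamoxifen cells, for ER and heat shock members alike, was not tested. With the number as a block, whose pairs all deviated together, 10 ER members were lower (20.8% of all genes called), Hsp90b1, Pdia3, Pdia6 and Dnajb11 beside the 6. With numbers 4 and above alone the ER median was -0.10, and Canx and Edem1, an ER protein that passes misfolded glycoproteins to degradation, were the 2 called among 12.4% of all genes. Without the 4 libraries rich in B cell markers the ER median was -0.02, and Canx (-0.33 ± 0.11, adjusted p = 0.0397) and P4hb were the 2 called (10.3% of all genes).

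In control mice the same comparison called 0 of 22 ER members in edgeR and in DESeq2, with 3 at an unadjusted p under 0.05 (median 0.02, 13 above 0). In edgeR 5.33% of all genes were called there. Labeled against post-tamoxifen cells gave 1 ER member in each genotype, in opposite directions and in different genes. In controls Hspa5 was higher in labeled cells, at 560.0, 559, 482, 440.3 and 475 CPM against 385, 407, 333, 394 and 399, without overlap (0.39 ± 0.10, adjusted p = 0.0126, 3.98% of all genes higher and 7.93% called). That call was lost with numbers 4 and above alone, without control numbers 2 and 3 and without post-tamoxifen control 3; without labeled control 2 or 4 it was joined by others (2 and 3 members). In fl/fl mice Xbp1 was lower in labeled cells, at 43.0, 56.3 and 69.9 CPM (lowest, median, highest) against 58.1, 76.4 and 118, with overlap (-0.54 ± 0.15, adjusted p = 0.0308, 2.78% of all genes lower and 4.58% called). It was lost without any of fl/fl post-tamoxifen libraries 1 to 3, without labeled fl/fl libraries 2, 3, 4 or 5, and with either subset of numbers alone. Without the libraries rich in B cell markers the 1 member called was Pdia6, higher in labeled cells by 0.52, and the ER median was 0.05. With the number as a block 2 ER members, Pdia4 and Xbp1, were lower there (8.11% of all genes called). The interaction of genotype with the label had an ER median of -0.35 against -0.02 for all genes, yet 0 of 22 passed in edgeR or DESeq2 (8 with an unadjusted p under 0.05), as did 0.0202% of all genes.

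**Figure D3:**
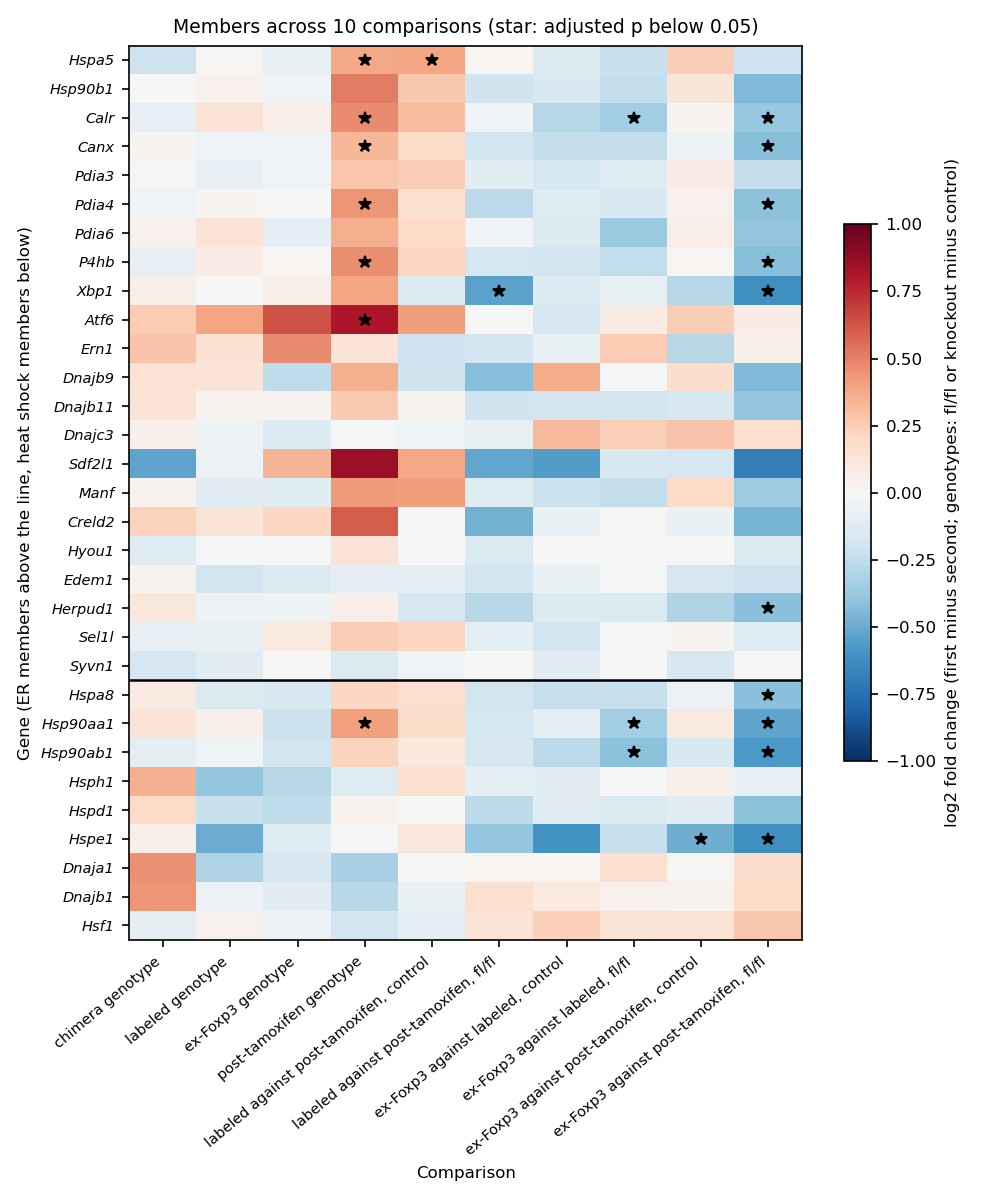
Log2 fold change (colour, from -1 to 1) of 31 members in 10 comparisons, ER members above the line and heat shock members below; a star marks an adjusted p below 0.05, and Hspa1a and Hspa1b are left out because of their near-absent counts. Stars gather in the post-tamoxifen genotype column (7) and in the column of ex-Foxp3 against post-tamoxifen cells of fl/fl mice (10), which share libraries.

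The constitutive cytosolic chaperones were the most abundant heat shock members. Per kilobase of exon, Hsp90ab1, the constant form of HSP90, had group means of 538 to 800 CPM, above every other member, and Hspa8 (HSC70) had 217 to 300.2; its introns hold small nucleolar RNA genes. The inducible forms Hspa1a and Hspa1b lay at 0 to 2.48 CPM per kilobase. Of the 11 heat shock members 9 passed the filter in the chimera experiment, where Hspa1a and Hspa1b did not, and 10 in the pulse-chase experiment, where Hspa1a did not.

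In fl/fl mice the HSP90 genes were lower in ex-Foxp3 cells than in either Foxp3-expressing population. Against post-tamoxifen cells 4 of 10 tested heat shock members were lower (Hsp90ab1, Hsp90aa1, Hspa8 and the mitochondrial Hspe1) and none was higher, beside 9.39% of all genes lower. Hsp90ab1 stood at 1729, 1704, 1357, 1695, 1829 and 1371 CPM in ex-Foxp3 cells and at 2312, 2470.1, 2307, 2344, 2886 and 2073 CPM in post-tamoxifen cells. Every ex-Foxp3 library was below every post-tamoxifen library, and Hsp90ab1 fell by 0.57 on the log2 scale (SE 0.08, adjusted p = 9.79e-06). It was 0.57 ± 0.11 lower with numbers 1 to 3 alone and 0.58 ± 0.11 lower with numbers 4 and above alone, and it passed in all 23 alternatives, with log2 differences from -0.62 to -0.53. Without the 4 libraries rich in B cell markers it differed by -0.59 ± 0.10 (adjusted p = 6.33e-05), where 4 heat shock members were called (10.3% of all genes).

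Hsp90aa1, the inducible form of cytosolic HSP90, stood at 254, 281 and 394 CPM (lowest, median, highest) in ex-Foxp3 cells of fl/fl mice and at 344, 421 and 581 CPM in post-tamoxifen cells. The ranges overlapped through ex-Foxp3 library 5 (-0.52 ± 0.11, adjusted p = 0.000693). Hspa8, the constant cytosolic HSP70, stood at 778, 963 and 1043 CPM against 939, 1275 and 1468, with overlap (-0.41 ± 0.11, adjusted p = 0.00677). Hspe1, the mitochondrial partner of the chaperonin Hspd1, stood at 32.6, 40.7 and 45.2 CPM against 50.5, 60.8 and 69.4, without overlap, and fell by 0.61 (SE 0.13, adjusted p = 0.00166); it too passed in all 23 alternatives. Hspd1, which forms the chaperonin ring with Hspe1, differed by -0.41 ± 0.19 and did not pass (adjusted p = 0.145). With the number as a block it did (-0.38 ± 0.14, adjusted p = 0.0471), which made 5 heat shock members lower (20.8% of all genes called). The higher myeloid marker sums of the post-tamoxifen libraries stand beside these differences as well, and their part was not tested. Myeloid sums of the fl/fl libraries were 20.1 to 63.3 CPM in labeled and 11.1 to 40.9 in ex-Foxp3 cells. Hsp90ab1 and Hsp90aa1 were also called lower than in labeled cells, as given below. There the Hsp90aa1 call was lost in 11 of 22 alternatives.

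Hspe1 and Hspd1 lie head to head on chromosome 1 and overlap in the table, so reads from the overlap cannot be assigned. A stretch upstream of annotated start sites of both genes holds the heat shock element, which is GAA, TTC and GAA (or TTC, GAA and TTC) with 2 bases between neighbours, on either strand, by which HSF1 is known to act; it is shown because the 2 genes share it.
Hspe1 and Hspd1, chr1:55088054-55088081, plus strand: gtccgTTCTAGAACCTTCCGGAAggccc
Capitals mark the matched bases. The 7 heat shock members with a promoter had 12 promoters, and 4 of these (33.3%) held the element. It was in none of the 19 ER promoters and in 0.603% of all promoters. The 4 belong to Hspe1, to 1 of the 2 Hspd1 start sites and to Hsph1, where it lies after the start site. Hspe1 and Hspd1 count the same stretch. The members were chosen as heat shock genes, so this contrast is not independent of that choice. No binding was measured here.

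In control mice Hspe1 was also lower in ex-Foxp3 than in post-tamoxifen cells. It stood at 37.5, 49.7, 35.3, 45.8 and 47.9 CPM in ex-Foxp3 cells against 63.2, 58.5, 65.0, 62.4 and 54.4 CPM in post-tamoxifen cells, without overlap, and was the 1 heat shock member called lower there (-0.49 ± 0.15, adjusted p = 0.044, 2.76% of all genes lower and 5.33% called). That call was lost in 15 of 21 alternatives, and without any 1 of the 5 ex-Foxp3 libraries or of post-tamoxifen libraries 1, 3, 4 and 5. In labeled control cells Hspe1 stood at 62.9, 73.5, 64.0, 70.7 and 54.9 CPM, also above every ex-Foxp3 library, but the difference of -0.60 ± 0.15 did not pass (adjusted p = 0.0512). In labeled fl/fl cells it ranged from 34.0 to 64.4 CPM and overlapped the ex-Foxp3 cells.

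Against labeled cells of fl/fl mice, ex-Foxp3 cells had lower Hsp90ab1, Hsp90aa1 and Calr, 3 members of the 2 sets, beside 2.04% of all genes lower and 4.09% called. Hsp90ab1 stood at 1903, 2129 and 2372 CPM (lowest, median, highest) in labeled cells, above every ex-Foxp3 library (-0.41 ± 0.08, adjusted p = 0.00139). Hsp90aa1 stood at 341, 384 and 423 CPM in labeled cells, with overlap through ex-Foxp3 library 5 (-0.35 ± 0.11, adjusted p = 0.0481), and its call was lost when any 1 of 9 libraries was left out (ex-Foxp3 1, 2, 3 and 6, labeled 1 to 5). Calr stood at 662, 790.1 and 853 CPM in labeled cells against 542, 589 and 737, with overlap (-0.35 ± 0.10, adjusted p = 0.0355), and was lost without any 1 of 7 libraries (ex-Foxp3 3 to 6, labeled 1, 2 and 6). Numbers 4 and above alone called none of the 3 (1.8% of all genes) and numbers 1 to 3 alone called 3, Canx in place of Calr (5.26% of all genes). Same-numbered libraries deviated together here, and with the number as a block 5 members were lower, Hspa8 and P4hb beside the 3 (9.0% of all genes called).

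In control mice that comparison called 0 members in edgeR (3 ER and 2 heat shock members had an unadjusted p under 0.05) and 1, Hspe1, in DESeq2, with 0.353% of all genes called. With the number as a block 2 were lower, Hspe1 and Hsp90ab1 (2.13% of all genes called). Hsp90ab1 stood at 1889.7, 1776, 1968, 1814 and 1776 CPM in control ex-Foxp3 cells against 2039, 2209, 2482, 1942 and 2375 CPM in labeled control cells, and the groups overlapped by 1 library on each side (-0.26 ± 0.09, adjusted p = 0.251 without the block). The interaction of genotype with loss of Foxp3 called 0 members in edgeR and DESeq2 (0 with an unadjusted p under 0.05), as it called 0.0% of all genes. Hsp90ab1 had an interaction of -0.15 ± 0.12 there, so a difference between genotypes in its fall was not shown.

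**Figure D4:**
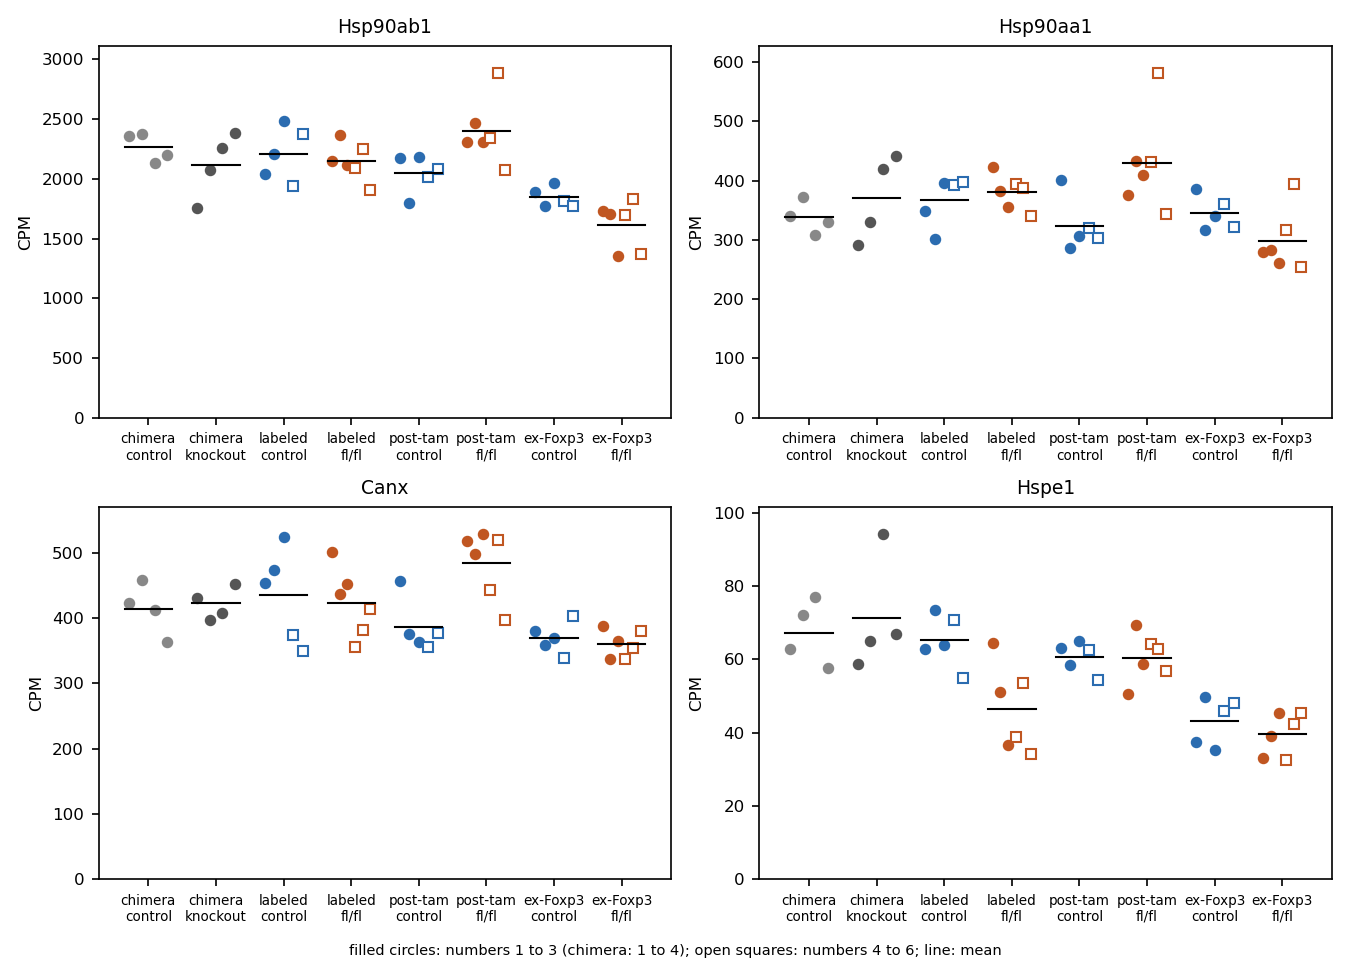
CPM (vertical axis, from 0) of Hsp90ab1, Hsp90aa1, Canx and Hspe1 in each library of the 8 groups, with group means as lines. In fl/fl mice the ex-Foxp3 libraries lie below all post-tamoxifen libraries for Hsp90ab1, Canx and Hspe1 (1357 to 1829 against 2073 to 2886 CPM for Hsp90ab1).

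Between genotypes, 1 of 10 tested heat shock members passed in the pulse-chase populations, in post-tamoxifen cells. There 3.9% of all genes were higher and 7.23% called, so this count is no result about the set. Hsp90aa1 in post-tamoxifen cells stood at 401, 287, 307, 320.4 and 304 CPM in control and at 344, 421 and 581 in fl/fl, with control 1 inside the fl/fl range (0.41 ± 0.11, adjusted p = 0.0186). It did not pass with either subset of numbers alone, nor without control library 3. The median log2 difference of the 10 tested heat shock members was 0.02, unlike the 0.36 of the ER members in the same fit; the contrast of the medians was not tested. Dnaja1 and Dnajb1, J-domain partners of HSP70, lay at -0.32 ± 0.14 and -0.28 ± 0.16, and were called lower in fl/fl with numbers 1 to 3 alone (-0.54 ± 0.17, adjusted p = 0.0325, and -0.49 ± 0.16, adjusted p = 0.0466). In labeled and in ex-Foxp3 cells 0 of 10 passed in edgeR and DESeq2, with 2 and 1 at an unadjusted p under 0.05. Of all genes 0.0101% and 0.181% were called there in edgeR. Hsf1, the heat shock factor, was at 32.96 to 71.9 CPM over the pulse-chase libraries and passed in no comparison.

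In the chimera experiment 0 of 9 tested heat shock members passed in edgeR, where 2.41% of all genes were called. Of the 9, 2 had an unadjusted p under 0.05, and DESeq2 called 1, Dnaja1. Dnaja1 stood at 216, 207, 191 and 149.97 CPM in control and at 189.9, 303, 258 and 301 CPM in chimeric knockouts. Dnajb1 stood at 61.0, 51.5, 53.6 and 49.6 CPM against 41.7, 91.2, 91.1 and 70.4 CPM. Hsph1 (HSP110, which recharges HSP70) stood at 153, 160.1, 149.7 and 112 CPM against 109, 191, 204 and 236 CPM. For all 3 genes, knockouts 2 to 4 were above every control and knockout 1 was not. Their differences of 0.46 ± 0.16, 0.44 ± 0.20 and 0.36 ± 0.25 did not pass with all libraries (adjusted p = 0.24, 0.367 and 0.637), and without knockout 1 they passed (0.60 ± 0.11, 0.65 ± 0.13 and 0.55 ± 0.11, adjusted p = 0.00314, 0.00875 and 0.00873). No other omission of 1 library, the Y-positive control 1 included, gave a call. B cell and plasma cell markers summed to 85.1 and 91.1 CPM in chimera controls 3 and 4 and to 6.4 to 17.2 in the other chimera libraries. Without controls 3 and 4 no member was called, the heat shock median went from 0.13 to 0.07 and the ER median from 0.03 to 0.01, and Dnaja1, Dnajb1 and Hsph1 differed by 0.32 ± 0.17, 0.39 ± 0.30 and 0.24 ± 0.32.

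The inducible HSP70 genes Hspa1a and Hspa1b are near-identical neighbours on chromosome 17, so the split of reads between them is uncertain and their counts are summed. In the chimera experiment the sum was 0 counts in each of the 4 controls and 3, 1, 21 and 9 counts in knockouts 1 to 4, where knockout 3 reached 8.82 CPM. A count of 0 allows up to 3 counts in a library, so in knockouts 3 and 4 the sum lay above that limit and in the others it did not.

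In the pulse-chase experiment the sum was high in all 3 populations of 3 library numbers. Control 4 had 31, 16 and 26 counts in labeled, post-tamoxifen and ex-Foxp3 cells, fl/fl 4 had 13, 9 and 29, and fl/fl 5 had 136, 21 and 104. The other 24 pulse-chase libraries had 0 to 8 counts each. In CPM, fl/fl 5 stood at 55.7, 18.6 and 42.7 in labeled, post-tamoxifen and ex-Foxp3 cells, while the 24 others stood at 0 to 2.32. Within each of these 3 numbers the post-tamoxifen library was the lowest in CPM. In fl/fl 5, Dnajb1 was the highest of its group in ex-Foxp3 and post-tamoxifen cells (86.9 and 80.4 CPM), and Hsp90aa1 was so as well (394 and 581 CPM). In labeled cells neither of them was the highest in fl/fl 5. Dnaja1 was the highest there in labeled and ex-Foxp3 cells (246 and 216 CPM), but not in post-tamoxifen cells. Hsph1 was the highest in fl/fl 5 in none of the 3 populations. Such values for control 4 and fl/fl 4 are not given here. The 3 numbers belong to both genotypes, and whether same-numbered libraries come from 1 mouse was not given in the labels.

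**Figure D5:**
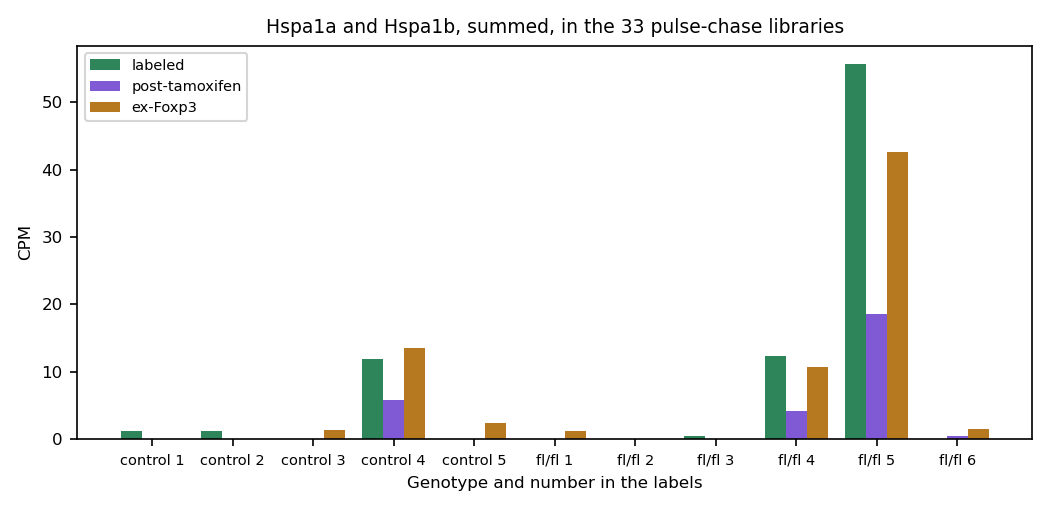
Summed CPM of Hspa1a and Hspa1b (bars, from 0) in the labeled, post-tamoxifen and ex-Foxp3 libraries of each pulse-chase number. The signal stands in all 3 populations of control 4, fl/fl 4 and fl/fl 5 (4.15 to 55.7 CPM) and is at most 2.32 CPM elsewhere.

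Other cytosolic chaperones and co-chaperones, a list of 51 genes of which 46 were tested, gave calls between populations. Against post-tamoxifen cells of fl/fl mice, 9 were lower and 3 higher in ex-Foxp3 cells, with a median of -0.13, beside 9.39% of all genes lower and 5.8% higher. In control mice 4 were higher in ex-Foxp3 cells and 5 higher in labeled cells than in post-tamoxifen cells, beside 2.57% and 3.98% of all genes higher, and none was lower in either. Bag3, a nucleotide exchange factor of HSP70, was among them in both, at 0.88 ± 0.22 (adjusted p = 0.0128) and 1.01 ± 0.22 (adjusted p = 0.00291), as was the J-domain gene Dnaja4, at 0.98 ± 0.20 (adjusted p = 0.00193) and 0.87 ± 0.20 (adjusted p = 0.00385). These comparisons share the post-tamoxifen control libraries, where the median myeloid sum stood above that of the other populations as given above. The lowest myeloid sum among these libraries, 28.9 CPM, lay inside the labeled control range of 24.2 to 45.2. A list of 16 mitochondrial chaperones and proteases includes the members Hspd1 and Hspe1. Of the 16, 2 were lower in ex-Foxp3 than in post-tamoxifen cells of fl/fl mice. They were the member Hspe1, given above, and Hspa9, the mitochondrial HSP70 (-0.34 ± 0.08, adjusted p = 0.00425). There 9.39% of all genes were lower, so a list of this size near that share is no result about the list.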

How the data were processed

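RNA-seq libraries from 41 sorted T cell samples, made with a stranded total RNA kit per the labels' protocols, were analysed. The submitters' processing notes name bcl2fastq (2.17.1.14) and TopHat2 (2.1.0), with the mouse build mm10, also called GRCm38. What the authors deposited is a table of unnormalized whole-number counts for each gene; how strand was treated in counting was not given in the sources used here. Library composition was scaled by TMM, low genes were filtered by edgeR's filterByExpr with groups as design, and groups were compared with the quasi-likelihood F-test of edgeR 4.0.16 in R 4.3.3, p-values being adjusted by the Benjamini-Hochberg method across every gene in the fit (9569 in the chimera fit, 9921 in the pulse-chase fit of all 33 libraries, no block for number); adjusted p under 0.05 was called. The procedure was tested on simulated data. Alternatives were DESeq2 1.42.0, other scalings and filters, subsets of libraries and a block; 1 subset was added after seeing the data. Replicates were checked for identity, and each pair differed by more than counting noise (chi-square over its degrees of freedom at least 2.60).

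Same-numbered libraries deviated together in every pair for ex-Foxp3 against labeled cells (correlations of 0.14 to 0.30 in control and 0.14 to 0.36 in fl/fl), and in fl/fl for ex-Foxp3 against post-tamoxifen (0.13 to 0.39) and labeled against post-tamoxifen cells (0.24 to 0.44). Members, lists and the rule for named genes (members called in any comparison, up to 12, plus a few fixed ones given library by library; up to 3 called genes of other lists) were chosen with earlier results of these data known. Limits from counts cover counting error only. Promoter sequences are from RefSeq, and exon lengths from GENCODE vM21.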

Additional observations from a re-analysis of the deposited data

Results flagged for a closer look

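Among the 14 members given library by library (Hspa1a and Hspa1b as 1 sum), 112 groups of 4 to 6 libraries were searched for a library far from the rest of its group, and 12 were found; chance alone flags about 1 group in 20. The summed Hspa1a and Hspa1b stood apart 6 times, in control 4 at 13.5 CPM in ex-Foxp3, 5.77 in post-tamoxifen and 11.9 in labeled cells, and in fl/fl 5 at 42.7, 18.6 and 55.7 CPM. The other such values are single libraries. Canx was high in post-tamoxifen control 1 (457 CPM against 356 to 377), the shallowest library. Pdia4 was low in ex-Foxp3 control 4 (211 CPM against 253 to 262), and Xbp1 was low in post-tamoxifen control 2 (39.97 CPM against 64.4 to 70.5), which also had little Foxp3. Hsp90aa1 was high in post-tamoxifen fl/fl 5 (581 CPM against 344 to 432). Hsf1 was high in ex-Foxp3 control 5 (61.0 CPM against 55.2 to 56.8) and in labeled fl/fl 4 (71.9 CPM against 39.5 to 51.1).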

How the results depend on the processing

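Counts of members called are given against those with all libraries. Chimera genotype (0) gave 1 with DESeq2, 3 without an expression filter and 0 to 3 with 1 library left out (3 without knockout 1). Post-tamoxifen genotype (7) gave 1 with the compared groups alone, 3 without control numbers 2 and 3, 16 with numbers 1 to 3, 0 with numbers 4 and above, 0 without the libraries rich in B cell markers (chosen after seeing the data) and 4 to 12 with 1 library left out. Ex-Foxp3 genotype (0) gave 1 with numbers 1 to 3. Ex-Foxp3 against labeled cells in control (0) gave 1 with the groups alone, DESeq2, RLE scaling or a stricter filter, and 0 to 1 with 1 left out; in fl/fl (3) it gave 0 with numbers 4 and above and 1 to 2 with 1 left out. Labeled against post-tamoxifen cells in control (1) gave 0 without numbers 2 and 3 or with numbers 4 and above, and 0 to 3 with 1 left out; in fl/fl (1) it gave 0 with the groups alone or either subset of numbers, and 0 to 2. Ex-Foxp3 against post-tamoxifen cells in control (1) gave 0 with the groups alone, without the filter, without numbers 2 and 3, with either subset of numbers or without the B cell marker libraries, and 0 to 2 with 1 left out; in fl/fl (10) it gave 13 with numbers 1 to 3, 5 with numbers 4 and above, 6 without the B cell marker libraries and 10 to 14 with 1 left out. With the replicate number as a block the counts were 1 for ex-Foxp3 genotype and 11 for post-tamoxifen genotype. In the population comparisons (control and fl/fl), ex-Foxp3 against labeled cells gave 2 and 5. Labeled against post-tamoxifen cells gave 3 and 2, and ex-Foxp3 against post-tamoxifen cells gave 2 and 15. Between genotypes, the pairing correlations ran from 0.08 to 0.29 for the labeled population. The post-tamoxifen population gave -0.08 to 0.24, and the ex-Foxp3 population gave 0.03 to 0.16. Chimera pairs ran from -0.09 to 0.02. Whether same-numbered libraries of different genotypes shared a batch was not tested. Over 23 named gene differences and 515 alternatives, 421 kept the call, 94 lost it and 0 changed sign. For the inducible HSP70 genes, depth sets a limit of 3 counts, or 0.525 to 3.84 CPM by library.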
